A study of Danio rerio with 12 samples.

Results

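The Hox cluster genes of zebrafish larvae were described from 12 RNA sequencing samples, as levels by cluster and paralogue group and as the difference between elmo3-/- and elmo3+/+ larvae. A gene was taken as a member when its symbol, written in lower case, began with hoxa, hoxb, hoxc or hoxd followed by a digit. This rule found 48 of the 32520 Ensembl gene identifiers, of which 11 were HoxA, 15 HoxB, 15 HoxC and 7 HoxD genes. The rule used no measured value.

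Each sample was a pool of 30 whole larvae at 120 hours post fertilization (hpf), with 6 pools of elmo3+/+ and 6 pools of elmo3-/- larvae. All larvae came from a line crossed with Tg(fli1:EGFP), in which the fli1 promoter drives EGFP in endothelial cells. The methods name littermates as the controls of knockout animals in the part on adult fish, and the part on sequencing does not repeat this. For gross morphology and viability up to 120 hpf, the paper's results name wild type littermates as the comparison. The elmo3-/- larvae carried 1 CRISPR/Cas9 allele, a short deletion in an early exon that shifts the reading frame. Elmo3 is an adaptor protein of the engulfment and cell motility family, which acts with DOCK proteins on the GTPase Rac1. The labels do not say whether pigmentation was suppressed with PTU in these pools, or whether the pools of a genotype came from separate clutches, so p-values measure the spread between these pools only.

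Hox genes encode homeodomain transcription factors that give cells their position along the head to tail axis. They lie in clusters, in which the order of the genes follows the order of their domains in the body, and the genes at matching positions in different clusters form a paralogue group. Low group numbers are used in the hindbrain and pharyngeal arches and high numbers in the posterior trunk, the tail and the distal part of fins and limbs. Zebrafish keep more clusters than mammals because of an additional genome duplication, so that many genes exist as an a and a b copy.

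Of the 48 identifiers, 15 carried their own zebrafish symbol in the symbol table. A further 23 could be given to a single zebrafish gene because only 1 copy was left in the RefSeq list of 49 protein-coding Hox genes. With 49 genes in that list and 48 identifiers, the rule did not find every listed Hox gene. The list holds 7 genes of hoxaa and 5 of hoxab against 11 HoxA identifiers, and its numbers match for the other letters. The HoxA sum and that of the paralogue group concerned therefore lack what the rule missed. The remaining 10 formed 5 pairs that share a human-style symbol (HOXA11, HOXB5, HOXC6, HOXC12 and HOXC13). They are named here by that symbol and the last digits of the Ensembl identifier, as in HOXB5-13057 for ENSDARG00000013057, and which of them is the a or the b copy was not resolved. None of the 38 placed members lies on the chromosome of elmo3.

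The rounded count per sample ranged from 16851341 to 17577009, and a count of 3 corresponded to 0.171 to 0.178 CPM (the count divided by the total count of the sample and scaled up), a limit that covers counting error only. The Hox genes held 8827 to 10432 of these counts, or 0.0510% to 0.0614%. Mitochondrial genes took 6.59% to 8.99% of the counts in elmo3+/+ and 7.28% to 10.3% in elmo3-/- pools, with the highest shares in elmo3-/- replicate 2 and, among controls, in elmo3+/+ replicate 1. The RNA of elmo3 itself ranged from 1.26 to 2.78 TPM (counts divided by transcript length and scaled to a fixed total) in elmo3+/+ (median 1.89) and from 1.24 to 2.63 TPM in elmo3-/- (median 2.01). Its log2 difference was 0.03 ± 0.19 (SE, edgeR), and a level that overlaps in this way gives no check of the labels. Of 35 identifiers for markers of larval cell types, 33 had a mean above 1 TPM and 0 were at zero in all samples. The exceptions were the tailbud markers msgn1 (0.0832 TPM) and tbx16 (0.250 TPM).

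All 48 members had reads in all 12 samples. Their mean level, in TPM as deposited by the authors, was above 1 TPM for 45 members and above 10 TPM for 20, against 61.8% of all identifiers above 1 TPM. The summed Hox level was 475 ± 24.4 TPM (SD, n = 12) and ranged from 445 to 537 TPM, with the highest value in elmo3-/- replicate 4. The 5 highest members made up 33.5% of this sum and the 10 highest 49.0%.

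**Figure D1:**
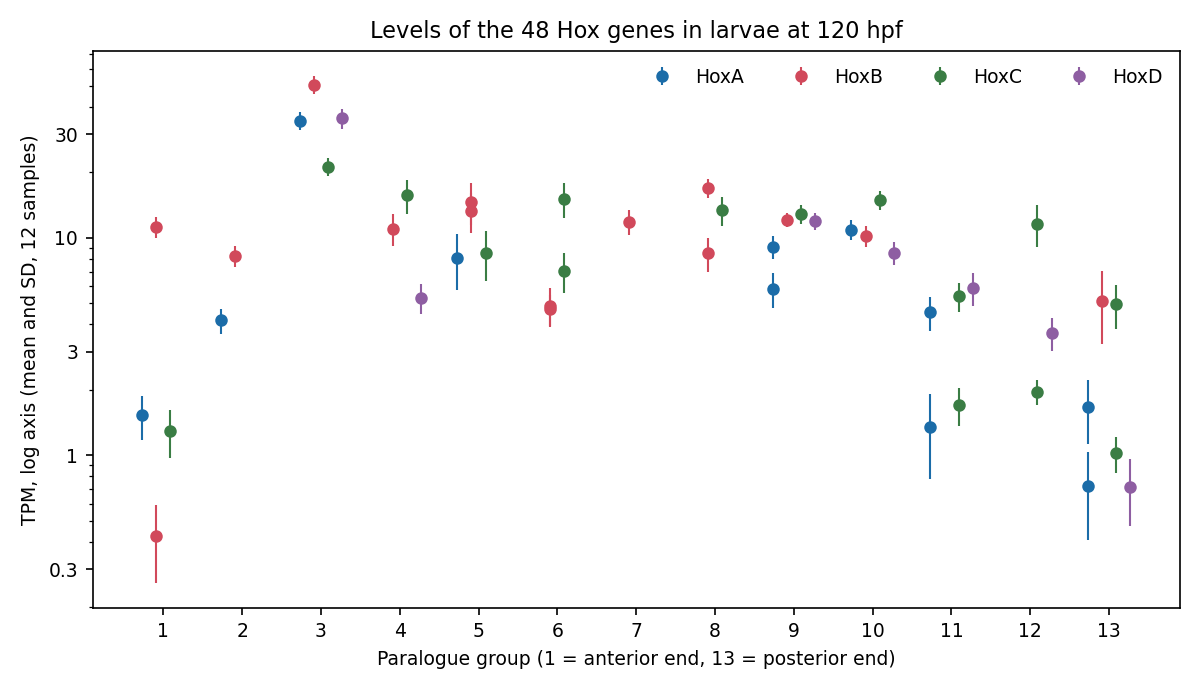
Mean level of each of the 48 Hox genes in TPM (log axis) against its paralogue group. Points are means over the 12 samples, bars are SDs and colours mark the cluster letter; the 4 genes of group 3 stand above all others, and groups 1, 11, 12 and 13 hold the members with the lowest levels.

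The 4 genes of paralogue group 3, which pattern the posterior hindbrain and the pharyngeal arches, were the 4 highest Hox genes in TPM. hoxb3a had 50.5 ± 4.91 TPM, hoxd3a 35.4 ± 3.85 TPM, hoxa3a 34.6 ± 3.33 TPM and hoxc3a 21.3 ± 2.02 TPM (mean ± SD, n = 12). Together they gave 142 ± 7.33 TPM, or 29.9% ± 1.098 of the summed Hox level. hoxa3a was above hoxc3a, and hoxc3a above the next gene, hoxb8a (17.0 ± 1.71 TPM), in 12 of 12 samples, whereas hoxd3a was above hoxa3a in 6 of 12. In counts, which are not divided by length, hoxb9a (mean 426) lay above hoxc3a (mean 408).

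Below this group the levels ran into each other. Of the 47 steps between neighbours in the order of mean TPM, only 3 had the higher gene above the lower gene in all 12 samples, the third being hoxd12a (3.65 ± 0.619 TPM) over HOXC12-03133 (1.96 ± 0.255 TPM). The other neighbours were not told apart by this criterion, and their ranks are a description of the means.

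The genes of groups 1 and 2 act in the hindbrain, where group 1 genes help to set up rhombomere identity. hoxb1b had 11.3 ± 1.26 TPM and hoxb2a 8.28 ± 0.917 TPM, while hoxa2b, a gene of the pharyngeal arches and hindbrain, had 4.18 ± 0.550 TPM. hoxa1a (1.53 ± 0.352 TPM) and hoxc1a (1.29 ± 0.322 TPM) were lower. hoxb1a was the lowest member, with 0.426 ± 0.166 TPM from a mean of 8.25 counts per sample, and it was the only member that did not pass the filter on low counts. The level of hoxc1a depends on the division by length, since its 156 counts per sample exceed those of many members with a higher TPM.

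Groups 4 to 8 cover the region from the posterior hindbrain through the trunk. In group 4, hoxc4a had 15.7 ± 2.79 TPM, hoxb4a 11.01 ± 1.84 TPM and hoxd4a 5.29 ± 0.830 TPM. In group 5, of which hoxb5b acts downstream of retinoic acid in the pectoral fin field of zebrafish, HOXB5-13057 and HOXB5-54030 had 14.7 ± 3.14 and 13.3 ± 2.81 TPM, and hoxc5a and hoxa5a had 8.56 ± 2.20 and 8.11 ± 2.33 TPM. In group 6 the levels were 15.1 ± 2.75 TPM for HOXC6-70343, 7.04 ± 1.47 TPM for HOXC6-01954, 4.88 ± 0.986 TPM for hoxb6b and 4.69 ± 0.753 TPM for hoxb6a. Groups 7 and 8 were carried by hoxb8a, hoxc8a (13.4 ± 1.99 TPM), hoxb7a (11.9 ± 1.54 TPM) and hoxb8b (8.48 ± 1.51 TPM), so that every member of groups 4 to 8 lay between 4.69 and 17.0 TPM.

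Groups 9 to 13 hold the posterior genes, which pattern the trunk and tail and, at the highest numbers, the distal fin. The 9 genes of groups 9 and 10 lay close together, from 5.81 ± 1.06 TPM for hoxa9a to 14.9 ± 1.45 TPM for hoxc10a. From group 11 onward the levels were lower. The 5 genes of group 11 had 1.35 to 5.89 TPM, with hoxd11a the highest. The 6 genes of group 13 had 0.718 to 5.14 TPM, with hoxb13a the highest and hoxd13a and hoxa13a (0.722 ± 0.315 TPM) the lowest. HOXC12-70352, at 11.6 ± 2.54 TPM, was the only member of groups 11 to 13 above 10 TPM.

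The sum fell to 18.9 ± 2.51 TPM in group 11, 17.2 ± 3.20 TPM in group 12 and 14.2 ± 3.73 TPM in group 13, from 51.8 ± 4.09 TPM in group 9 and 44.6 ± 4.07 TPM in group 10. Anterior groups 1 to 3 (10 genes), central groups 4 to 8 (15 genes) and posterior groups 9 to 13 (23 genes) gave sums of 169 ± 8.92, 159 ± 19.9 and 147 ± 13.7 TPM. In mean TPM the 3 regions thus held similar totals from unequal numbers of genes. In counts, which are not divided by length, they did not. The anterior sum ranged from 3554 to 4364 counts per pool, the central from 1951 to 2866 and the posterior from 2541 to 3367. By cluster letter, HoxB held 38.7% ± 1.79 of the summed level, HoxC 28.8% ± 0.722, HoxA 17.4% ± 0.617 and HoxD 15.1% ± 1.55. In CPM, which is not divided by length, the shares were 42.2% for HoxB, 24.0% for HoxC, 17.2% for HoxD and 16.6% for HoxA, so the order of HoxA and HoxD turned with the unit. Among the placed copies, the cluster hoxba had 131 ± 7.71 TPM from 10 genes, hoxca 93.3 ± 5.10 TPM from 8 and hoxda 71.4 ± 6.13 TPM from 7. The placed copies of hoxaa (50.8 ± 4.55 TPM, 5 genes), hoxab (25.9 ± 2.63 TPM, 4 genes) and hoxbb (24.6 ± 2.71 TPM, 3 genes) followed. For hoxcb only hoxc11b was placed (1.70 ± 0.343 TPM). The 10 members with an unresolved copy are left out of these sums. The RefSeq list holds 7 genes of hoxaa, 5 of hoxab, 4 of hoxbb and 4 of hoxcb. The order of these smaller clusters and the level of hoxcb are therefore not settled by the sums.

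For 11 letter and number combinations both duplicate copies were measured. In 9 of these pairs 1 copy had the higher TPM in all 12 samples. The pairs HoxB5 and HoxB6 were the exceptions, with the same copy higher in 10 and 7 of 12 samples and mean levels that differed 1.099-fold and 1.04-fold.

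The largest gap was that of the HoxB1 pair. hoxb1b exceeded hoxb1a 26.4-fold in mean TPM, and 28.4-fold in CPM. In the 11 samples with more than 3 counts of hoxb1a the ratio in TPM was 12.5-fold to 33.4-fold, and elmo3-/- replicate 2, with 2 counts of hoxb1a, is left out of this range. The HoxC12 pair followed with HOXC12-70352 5.91-fold above HOXC12-03133, and HOXC13-70353 (4.95 ± 1.15 TPM) was 4.83-fold above HOXC13-13877 (1.02 ± 0.196 TPM). These last differences lay largely in the length division, because the CPM of the copies differed 1.66-fold in the HoxC12 pair and 1.02-fold in the HoxC13 pair. In the HoxA11 pair the unit acted the other way, with a fold of 3.37 in TPM and 7.11 in CPM. Reads from near-identical parts of 2 copies can be assigned to either of them by the counting program, and how far this happened was not tested.

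**Figure D2:**
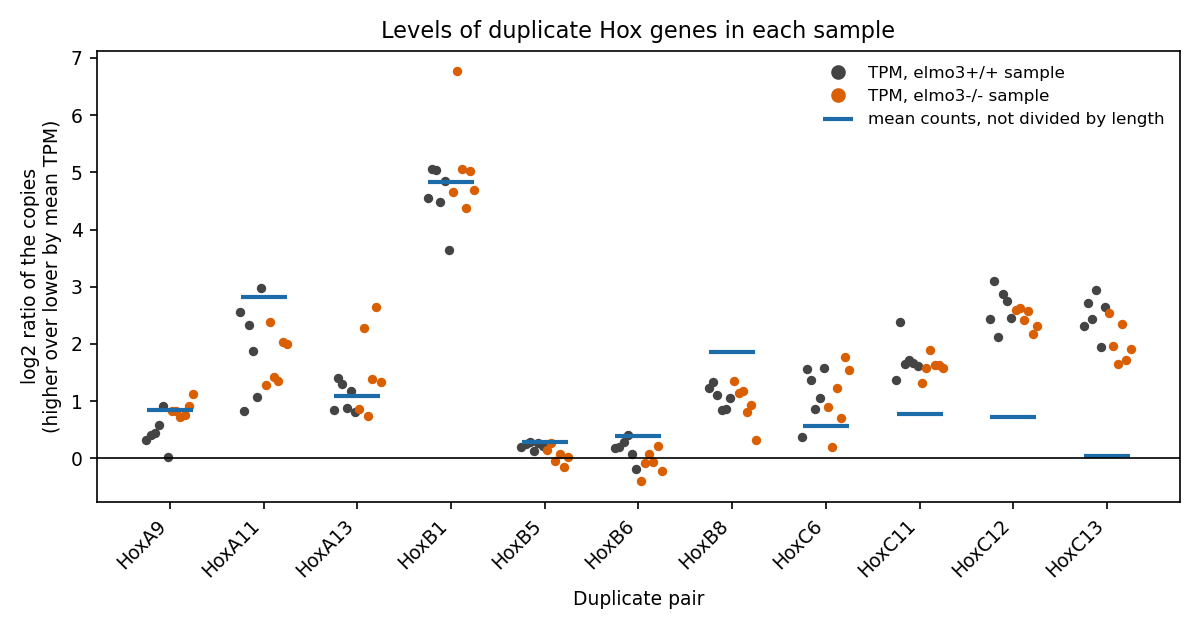
Ratio of the 2 copies of each duplicate Hox pair (log2, copy with the higher mean TPM over the other). Points are the 12 samples in TPM and blue bars are the ratios of mean CPM. HoxB1 lies highest at 12.5-fold to 33.4-fold, except for its topmost point, which rests on 2 counts of hoxb1a. HoxB5 and HoxB6 lie around 0. The blue bars of HoxC11, HoxC12 and HoxC13 lie below all of their points, and those of HoxB5 and HoxB8 above all of theirs.

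Whether the loss of Elmo3 changes Hox expression was asked by comparing 6 elmo3-/- with 6 elmo3+/+ pools. None of the 47 members tested passed an adjusted p of 0.05 (edgeR quasi-likelihood test, Benjamini-Hochberg over 21127 genes), a threshold passed by 21 or 0.0994% of all genes tested. The smallest adjusted p of a member was 0.489. DESeq2 called 0 members as well, with a smallest adjusted p of 0.224. In TMM-scaled CPM, which uses the scaling of the edgeR fit, no member had values that did not overlap between the genotypes. Of all genes 0.431% had such values.

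At an unadjusted p under 0.05, 9 of the 47 members (19.1%) remained in edgeR and 9 in DESeq2, against 9.52% of all genes in edgeR. Of the 9 in edgeR, 7 were higher in elmo3-/-, where 4.58% of all genes were, and 2 were lower, where 4.95% of all genes were. The count was not stable over the pools. It was 5 without elmo3+/+ replicate 4, 6 without elmo3+/+ replicate 5 and 5 without elmo3-/- replicate 2, and 14 without elmo3+/+ replicate 1 and 15 without elmo3-/- replicate 6. The 9.52% belongs to the edgeR fit of all pools. The shares of all genes in DESeq2 and with a pool left out are not given here. These changes in the count may therefore be shared by genes outside the Hox clusters.

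The median log2 difference (elmo3-/- minus elmo3+/+) was 0.12 over the members and 0.0045 over all genes, and the range over the members was -0.33 to 0.48. The difference was positive for 35 of 47 members (74.5%), against 51.1% of all genes, but for 31 with total count scaling, 25 with limma on log2(TPM + 1) and 23 with limma on log2(TPM + 0.1). Under these 3 settings 36.98%, 30.8% and 30.6% of all genes were positive. A positive sign of a single member near 0 therefore depends on the scaling. The summed Hox level was 474 ± 12.1 TPM in elmo3+/+ and 475 ± 34.1 TPM in elmo3-/- pools (SD, n = 6 each).

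**Figure D3:**
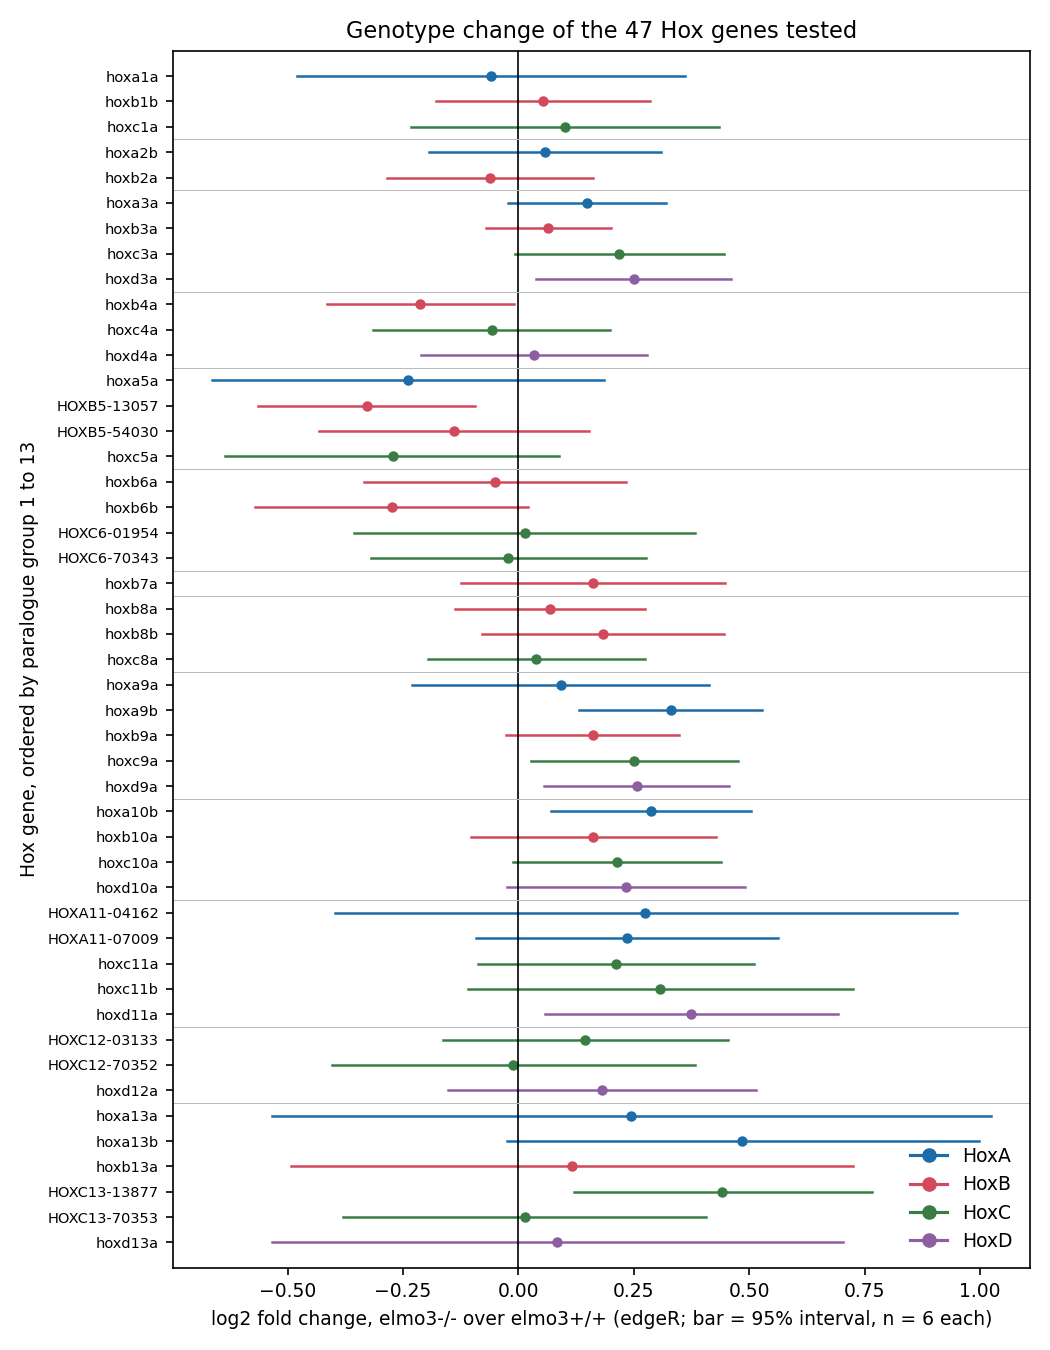
Log2 fold change between elmo3-/- and elmo3+/+ pools for the 47 Hox genes tested, ordered by paralogue group from 1 at the top to 13 at the bottom. Points are edgeR estimates, bars are 95% intervals (n = 6 per genotype) and colours mark the cluster letter; most genes of groups 9 to 13 lie to the right of 0 and most of groups 4 to 6 to the left, and no member passed the adjusted threshold.

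The sign of the difference was unevenly spread over the paralogue groups, which were joined into the ranges below after the values were seen. In groups 9 to 13, 22 of 23 members were positive, with a median of 0.23, and 18 to 23 were positive over all alternatives. In groups 4 to 6, 9 of 11 members were negative, with a median of -0.14, and 8 to 11 were negative over all alternatives. All 4 genes of group 3 were positive, as were all 7 HoxD genes, but 1 of the 4 and 2 of the 7 turned negative on the log2 TPM scales, and 1 HoxD gene with total count scaling and when any of 4 pools (elmo3+/+ replicate 1 and elmo3-/- replicates 1, 3 and 4) was left out. These counts describe members that share pools, and were given no test. The liver list described further on (fabp10a, apoa2 and tfa) ranged from 1025 to 4736 TPM in elmo3+/+ and from 630 to 2586 TPM in elmo3-/-. Its Pearson's r with the summed level over 12 pools was -0.678 for group 9, -0.665 for group 10 and -0.612 for group 11, and -0.348, -0.464 and -0.271 without the 2 farthest pools. Within elmo3+/+ these values were -0.733, -0.699 and -0.326, and within elmo3-/- -0.265, -0.606 and -0.575. For groups 12 and 13, r with the liver list over 12 pools was 0.105 and 0.114. It was 0.628 and 0.596 within elmo3+/+ and -0.499 and -0.279 within elmo3-/-, so the negative relation was not shared by all posterior groups. The part of the liver list in the signs of the posterior groups was not tested.

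hoxa9b, a posterior trunk gene, had the smallest p. Its level had a lowest, median and highest value of 7.28, 8.19 and 9.36 TPM in elmo3+/+ and of 9.08, 9.95 and 10.7 TPM in elmo3-/-. All but 1 of the elmo3-/- pools lay above the highest elmo3+/+ pool in TMM-scaled CPM. The log2 difference was 0.33 ± 0.09 (SE, edgeR adjusted p = 0.489), and the adjusted p ranged from 0.150 to 0.797 over the alternatives. Its copy hoxa9a had a log2 difference of 0.09 ± 0.15 with overlapping pools (4.14 to 7.42 TPM in elmo3+/+, 4.61 to 6.27 TPM in elmo3-/-). Its medians in TPM, 6.39 in elmo3+/+ and 5.51 in elmo3-/-, went the other way.

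HOXC13-13877 had 0.753, 0.871 and 1.15 TPM (lowest, median, highest) in elmo3+/+ and 0.971, 1.16 and 1.38 TPM in elmo3-/-. The pools overlapped, and 3 of 6 elmo3-/- pools were above the highest elmo3+/+ pool in TMM-scaled CPM. The log2 difference was 0.44 ± 0.15 (edgeR adjusted p = 0.492).

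hoxa10b, which neighbours hoxa9b in the hoxab cluster, had 9.52, 9.94 and 11.3 TPM in elmo3+/+ and 9.84, 12.2 and 12.6 TPM in elmo3-/-, with a log2 difference of 0.29 ± 0.10 (edgeR adjusted p = 0.499). hoxd9a had 10.4, 11.2 and 11.9 TPM against 11.5, 12.5 and 13.7 TPM, with a log2 difference of 0.26 ± 0.09 (edgeR adjusted p = 0.499). For both genes 4 of the 6 elmo3-/- pools exceeded the highest elmo3+/+ pool in TMM-scaled CPM. Replicates 5 and 6 of elmo3-/- were the lowest of their group.

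hoxd3a, the second highest Hox gene in TPM, had 28.0, 32.8 and 38.4 TPM in elmo3+/+ and 35.4, 37.02 and 41.8 TPM in elmo3-/-. Its log2 difference was 0.25 ± 0.10 (edgeR adjusted p = 0.499), and elmo3+/+ replicates 1 and 3 lay among the elmo3-/- pools. The other genes of group 3 differed by 0.22 ± 0.11 (hoxc3a), 0.15 ± 0.08 (hoxa3a) and 0.06 ± 0.06 (hoxb3a). For hoxa3a the medians in TPM, 34.1 in elmo3+/+ and 33.6 in elmo3-/-, did not show the direction of the TMM-scaled estimate. Named after their values were seen, hoxd11a (0.37 ± 0.15) and hoxc9a (0.25 ± 0.11) completed the members with a positive difference at an unadjusted p under 0.05, each with an edgeR adjusted p of 0.499.

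In the opposite direction stood HOXB5-13057, 1 of the 2 hoxb5 genes. It had 13.2, 17.3 and 17.8 TPM in elmo3+/+ and 9.12, 12.8 and 16.8 TPM in elmo3-/-. Replicates 1 and 2 of elmo3-/-, at 9.49 and 9.12 TPM, were the lowest of all pools. In TMM-scaled CPM, 4 of 6 elmo3-/- pools lay below the lowest elmo3+/+ pool. In TPM, replicate 5 of elmo3-/- (13.7) lay above the lowest elmo3+/+ pool (13.2). The log2 difference was -0.33 ± 0.11 (edgeR adjusted p = 0.489), with adjusted p from 0.189 to 0.852 over the alternatives. hoxb4a had 10.6, 11.9 and 13.6 TPM in elmo3+/+ and 7.38, 10.03 and 12.3 TPM in elmo3-/-, with a log2 difference of -0.21 ± 0.10 (edgeR adjusted p = 0.511). Replicate 2 of elmo3-/- was again the lowest.

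The other 3 genes of group 5, named after their values were seen, had log2 differences of -0.27 ± 0.17 (hoxc5a), -0.24 ± 0.20 (hoxa5a) and -0.14 ± 0.14 (HOXB5-54030), with edgeR adjusted p of 0.608, 0.703 and 0.752. The interval of hoxc5a ran from -0.64 to 0.09 and that of hoxa5a from -0.66 to 0.19, so that neither 0 nor a decrease of the size seen for HOXB5-13057 was outside them. The largest difference of any member in size was that of hoxa13b, 0.48 ± 0.24, with a 95% interval from -0.02 to 0.998. For the members named for their p, and the rest of group 5, all 240 values under the alternatives kept the direction given here and 0 passed the adjusted threshold. These members were chosen by their values in the same pools, which the alternatives reuse. The kept direction is therefore no separate evidence.

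The log2 ratio of the copies of a pair is given by genotype as a description. That of HOXB5-13057 to HOXB5-54030 was 0.22 ± 0.06 in elmo3+/+ and 0.05 ± 0.15 in elmo3-/- pools (SD, n = 6), and that of hoxa9b to hoxa9a was 0.45 ± 0.29 and 0.87 ± 0.15. The ratio of HOXC13-70353 to HOXC13-13877 was 2.50 ± 0.34 and 2.02 ± 0.35. In some other pairs the means lay closer, at 1.13 and 1.06 for HoxC6, 1.07 and 0.96 for HoxB8 and 1.74 and 1.61 for HoxC11. The means of HoxB1 were 4.61 ± 0.53 and 5.10 ± 0.86, and those of HoxA13 1.07 ± 0.25 and 1.54 ± 0.77. HoxB6 had 0.16 and -0.08, HoxA11 1.94 and 1.75 and HoxC12 2.63 and 2.45. By the means alone, the pairs named first did not stand apart. The differences between the copies were not tested.

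Summed levels showed how the pools behaved within each genotype. The sum of group 5 had 37.6, 51.2 and 55.3 TPM (lowest, median, highest) in elmo3+/+ and 25.03, 42.01 and 53.3 TPM in elmo3-/-. It was lowest in elmo3-/- replicates 2 and 1 (25.03 and 28.7 TPM), then in elmo3+/+ replicate 1 and elmo3-/- replicate 3 (37.6 and 39.6 TPM), while the other 8 pools lay between 44.4 and 55.3 TPM. Mitochondrial genes took 10.3% and 9.10% of the counts in elmo3-/- replicates 2 and 1 and 8.99% in elmo3+/+ replicate 1, but also 9.11% in elmo3-/- replicate 4, where the group 5 sum was 53.3 TPM. Their part in the result was not tested. In bulk samples, fewer cells of a type and less RNA per cell cannot be told apart.

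The sum of group 10 had 39.8, 43.0 and 44.4 TPM in elmo3+/+ and 40.0, 48.8 and 50.8 TPM in elmo3-/-, where replicates 1 to 4 lay above all elmo3+/+ pools and replicates 5 and 6 among them. The sum of group 11 had the same 4 elmo3-/- pools at 20.1 to 23.6 TPM and the other pair at 17.8 and 17.1 TPM, against 15.5 to 20.5 TPM in elmo3+/+. The summed level of the fin list (and1, and2 and TBX5) was 119 to 160 TPM in these 4 elmo3-/- pools and 71.1 and 66.0 TPM in replicates 5 and 6. Pearson's r with the fin list was 0.950 for group 10 and 0.764 for group 11 within elmo3-/-, 0.145 and 0.659 within elmo3+/+, and 0.566 and 0.536 over 12 pools. Its part in these sums was not tested. The sum of group 3 varied little, from 131 to 146 TPM in elmo3+/+ and from 136 to 160 TPM in elmo3-/-.

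**Figure D4:**
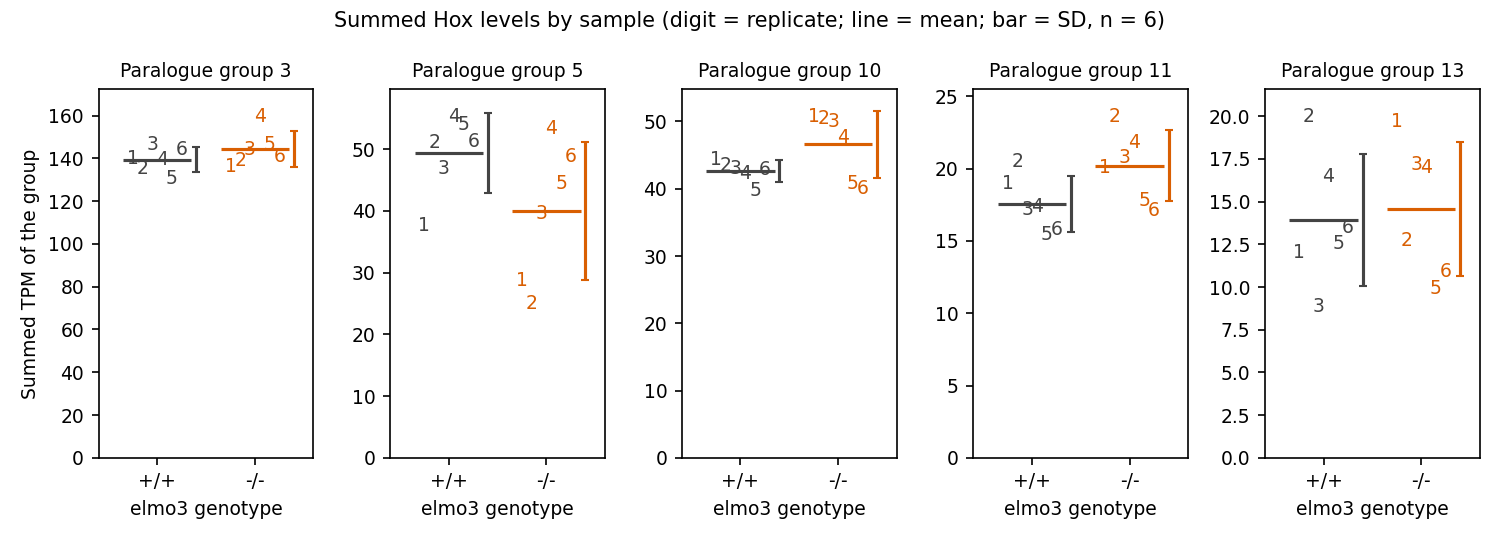
Summed TPM of Hox paralogue groups 3, 5, 10, 11 and 13 in each pool. Digits are replicate numbers, lines are means and bars SDs (n = 6 per genotype); group 5 is lowest in elmo3-/- replicates 1 and 2, group 10 is above the elmo3+/+ pools in elmo3-/- replicates 1 to 4, and group 13 overlaps over its whole range.

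Across all 12 pools the median coefficient of variation of a member was 16.7% in CPM, 1.90 times that of counting alone. It was more than 2 times the counting value for 14 members and more than 3 times for 4, namely HOXB5-13057 (3.76), hoxd3a (3.40), HOXB5-54030 (3.31) and hoxb13a (3.21).

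The variation that members shared was described by correlation, and it differed between paralogue groups. After each genotype was centred on its mean, the correlation of log2 TPM over the 12 pools had a median of 0.528 for the 54 pairs within a group, 0.107 for the 224 pairs with the same letter and another group, and 0.0513 for the other 583 pairs (42 members with a mean count of at least 50). The 6 pairs within group 5 had a median of 0.911 and a lowest value of 0.772. The 6 pairs within group 3 had a median of 0.0675 (-0.432 to 0.656, with 3 positive), the 1 pair within group 1 had -0.0418, and within group 6 a pair lay at -0.501. Genes of groups 12 and 13 had a median of 0.569 and were positive in 15 of 15 pairs, whereas pairs between groups 4 to 6 and groups 9 to 11 had a median of -0.330. The points share libraries and depth, and overlapping sequence may share reads, so these values are a description.

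The sums of the paralogue groups were set beside markers of larval cell types, over 143 relations with a median absolute Pearson's r of 0.281. The highest by Pearson's r was that between group 13 and the fin list (and1, and2 and TBX5). In this list and1 and and2 encode actinodins, structural proteins of the fin fold. Pearson's r of the log2 levels was 0.924 and Spearman's rho 0.902 over 12 pools, and r was 0.952 within elmo3+/+, 0.942 within elmo3-/- and 0.941 without the 2 pools farthest from the median. The sum of group 13 had 8.87, 13.04 and 19.99 TPM in elmo3+/+ and 9.92, 14.8 and 19.7 TPM in elmo3-/-, so that the genotypes overlapped over nearly the whole range.

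By gene, r of the group 13 sum was 0.903 for and1 and 0.8995 for and2, but 0.0546 for TBX5, the T-box factor of the pectoral fin bud, which was measured at 1.06 TPM. Among the members of group 13, r with the fin list was 0.832 for HOXC13-70353, 0.831 for hoxb13a, 0.770 for hoxd13a, 0.725 for hoxa13a and 0.697 for hoxa13b. HOXC13-13877 had 0.272. Group 12 gave r = 0.869, with 0.855 for hoxd12a, 0.847 for HOXC12-70352 and 0.333 for HOXC12-03133. For the lower copies of HoxC12 and HoxC13, r was low within elmo3+/+ (-0.475 for HOXC12-03133 and 0.0986 for HOXC13-13877) and high within elmo3-/- (0.933 and 0.891), and the difference between genotypes was not tested.

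Groups 4 and 5 varied with markers of the liver, of red blood cells and of the exocrine pancreas. The liver list was fabp10a, apoa2 and tfa, which encode a fatty acid binding protein, an apolipoprotein and transferrin. For group 5 and the liver list, r was 0.852 and rho 0.881 over 12 pools. Within elmo3+/+ r was 0.939, within elmo3-/- 0.854, and without the 2 farthest pools 0.772. For group 4 and the liver list, r was 0.836. The same groups had r of 0.836 (group 4) and 0.818 (group 5) with the globin gene hbae1.1 of red blood cells, and of 0.720 and 0.731 with the exocrine pancreas list (prss1 and ela2l).

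None of the 3 liver markers passed the adjusted threshold, and 3 of 3 had a negative difference at an unadjusted p under 0.05, where 4.95% of all genes had one. Their summed level ranged from 1025 to 4736 TPM in elmo3+/+ and from 630 to 2586 TPM in elmo3-/-, with none at 0, and was lowest in elmo3-/- replicates 2 and 1 and elmo3+/+ replicate 1. The log2 differences were -0.92 ± 0.31 (fabp10a), -0.95 ± 0.37 (apoa2) and -1.31 ± 0.44 (tfa), with edgeR adjusted p from 0.489 to 0.499. Their part in the group 5 values was not tested. The actinodins showed no such difference, with 0.16 ± 0.22 for and1 and -0.19 ± 0.30 for and2 (edgeR adjusted p of 0.832 and 0.855).

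**Figure D5:**
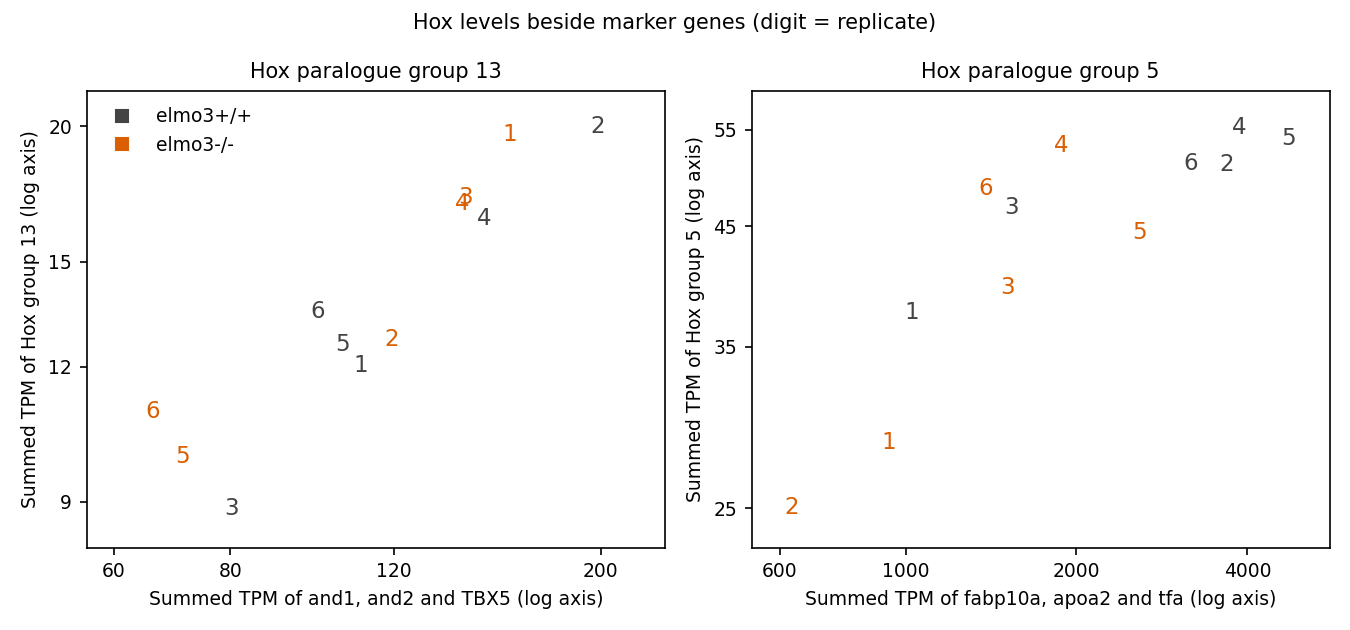
Summed TPM of Hox group 13 against the fin list (left) and of Hox group 5 against the liver list (right) in the 12 pools, on log axes. Digits are replicate numbers and colours the genotype; in the left panel both genotypes spread along the same diagonal (r = 0.924), and in the right panel elmo3-/- replicates 1 and 2 lie at the lower left (r = 0.852).

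The genes that act with or on the Hox clusters were taken from 7 lists with 112 symbols, of which 109 were matched to 115 identifiers and 112 of these were tested. In edgeR 0 of the 112 passed the adjusted threshold (smallest adjusted p 0.489), and 12 (10.7%, against 9.52% of all genes) had an unadjusted p under 0.05, 9 higher and 3 lower in elmo3-/-. The PBC and Meis proteins, homeodomain cofactors that bind DNA together with Hox proteins, had 0 of 12 at this p. Their highest members were MEIS2 (139 ± 13.1 TPM) and PBX3 (128 ± 19.5 TPM), which were above the mean of every Hox gene.

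Regulators of the cluster boundaries, CTCF and cohesin, had 0 of 13 at an unadjusted p under 0.05, with rad21a (98.8 ± 10.2 TPM) and CTCF (38.2 ± 3.52 TPM) the highest. The retinoic acid pathway, which induces anterior Hox genes, had 1 of 24, RARG, a retinoic acid receptor, at -0.22 ± 0.08, and its highest members were CRABP2 (28.5 ± 1.35 TPM) and CRABP1 (28.4 ± 4.14 TPM), which encode binding proteins of retinoic acid. The hindbrain segmentation regulators had 1 of 15, and EFNB2 (37.6 ± 4.82 TPM) and EPHA4 (36.8 ± 3.36 TPM) were the highest. Among the ParaHox and Evx genes, relatives of the Hox genes outside or beside the clusters, 1 of 8 had such a p, the pancreas and gut gene pdx1 at -0.43 ± 0.19, and GSX1 (12.7 ± 1.61 TPM) and cdx1b (7.55 ± 1.80 TPM) were the highest.

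The chromatin regulators that keep Hox genes on or off held 9 of the 12. In the list of Trithorax genes, whose products maintain active Hox genes, 7 of 17 members were higher in elmo3-/- at an unadjusted p under 0.05, where 4.58% of all genes were, and 0 lower. These 7 were the histone methyltransferase genes kmt2a (0.31 ± 0.12), kmt2ba (0.16 ± 0.08), kmt2bb (0.20 ± 0.08), both identifiers named KMT2C (0.22 ± 0.09 and 0.27 ± 0.09) and KMT2D (0.27 ± 0.11), and the demethylase gene KDM6A (0.18 ± 0.07), named after their values were seen. The 2 highest members, DPY30 (58.0 ± 7.51 TPM) and ASH2L (34.99 ± 2.76 TPM), which encode subunits of the same complexes, had log2 differences of -0.04 ± 0.12 and -0.01 ± 0.07. In all, 11 of the 17 Trithorax members had a positive difference. The summed level of the list overlapped, with 324 to 371 TPM in elmo3+/+ and 313 to 383 TPM in elmo3-/- pools. How the count of 7 behaves under the alternatives is not given here. In the list of Polycomb genes, whose products keep Hox genes silent, 2 of 23 were higher at this p, ezh1 (0.21 ± 0.07) and cbx7a (0.38 ± 0.12), and the highest members were RBBP4 (46.8 ± 4.10 TPM) and RNF2 (44.7 ± 4.25 TPM).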

How the data were processed

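Total RNA of 12 pools of 30 larvae at 120 hpf was sequenced, 6 per genotype according to the sample titles. The deposited files hold, for each pool, unscaled estimated counts per gene and TPM values, which the authors derived from such counts by dividing by transcript length and fixing the total. The submitters' processing notes name Trim Galore 0.6.4, kallisto 0.4.6 and the build GRCz11, without settings. Of the estimated counts 63.0% were whole numbers (tolerance 0), and all were rounded before a count model was fitted.

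Symbols were found for 29201 of 32520 identifiers (89.8%). Copies were assigned with the RefSeq gene table of GRCz12tu, used for names and chromosome mates only. Levels between genes were compared in TPM. Genotypes were compared in edgeR 4.0.16 (R 4.3.3) by its quasi-likelihood test (TMM scaling, filterByExpr, genotype as the only term), fitted to all 21127 genes that passed the filter, with Benjamini-Hochberg adjustment over them and an adjusted p under 0.05 as the threshold. The edgeR steps were tested on simulated data. Depth per sample is given with the report, and intervals are 95% intervals of the fit.

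Genes named were those past the threshold and up to 5 per direction with the smallest p among those at an unadjusted p under 0.05. Members without overlap in TMM-scaled CPM, the 2 highest of each cluster and the 2 highest of each list were also named. So were copies of pairs differing over 4-fold in TPM with the larger at 2 TPM or more. Exceptions are marked in the text. A value for 1 gene of the regulator lists is not reported here. The members, lists and rules were chosen with earlier results of these data known.

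Alternatives were DESeq2 1.42.0, scaling by total count or upper quartile, a minimum mean count of 10 or no filter at all, a replicate block, limma 3.58.1 on log2(TPM + 1) and log2(TPM + 0.1), each pool left out in turn, CPM in place of TPM, and levels from 1 genotype alone. No sequences were printed.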

Additional observations from a re-analysis of the deposited data

Results flagged for a closer look

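The highest or lowest pool was compared with the rest in 84 sets of 6 values. The sets were levels of named members, not of all members, and summed levels, each within a genotype. The measure was the gap to the nearest neighbour over the whole range, and 2 sets had a pool that stood apart. Chance flags about 1 in 20 such sets. The summed HoxA level was 99.6 TPM in elmo3-/- replicate 4, while the other elmo3-/- pools lay between 77.4 and 82.8 TPM (gap over range 0.759). HOXB5-13057 was at 13.2 TPM in elmo3+/+ replicate 1, while the other elmo3+/+ pools lay between 16.3 and 17.8 TPM (gap over range 0.674).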

How the results depend on the processing

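Over 20 alternatives, 0 Hox genes passed the adjusted threshold in each. The number of genes past it over the whole table was 21 and became 49 with DESeq2, with 17 to 22 when 1 pool was left out. Hox genes at an unadjusted p under 0.05 ranged from 5 to 15 when 1 pool was left out, with no share of all genes set beside these counts. With limma on log2(TPM + 0.1), the members with a positive log2 difference numbered 23 and their median was -0.0031. When 1 pool was left out, these ranged from 31 to 36 and from 0.06 to 0.16, again with no share of all genes beside them. In CPM the shares of the summed level were 16.6% for HoxA, 42.2% for HoxB, 24.0% for HoxC and 17.2% for HoxD. The log2 folds of 8 duplicate pairs moved by more than the SD of their log2 ratio over the samples. For HoxA11, HoxB6 and HoxC6 among them, the CPM fold still lay within the range of the samples in TPM. With the replicate block, 17 genes and 0 Hox genes were called, and the smallest edgeR adjusted p of a Hox gene was 0.312. Of the Hox genes 9 had an unadjusted p under 0.05 and 34 were positive (median 0.13). The shares of all genes in this fit are not given here, so nothing is read from these counts. The titles number the pools 1 to 6 in both genotypes. Same-numbered pools had a correlation above 0.1 in 3 of 6 pairs (-0.289 to 0.392), and 3 of 6 correlated best with their own number. The mean correlation was 0.110 for same-numbered pools and -0.021 for the others. These values do not settle whether the pools were paired, and the main fit treated them as unpaired. The estimated counts keep no read identity, so reads shared between copies could not be followed, and counting error weighed most on the 6 members with a mean under 50 counts per sample.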
